A study of Mus musculus with 6 samples.

Results

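Adipocyte genes were examined in 6 ectopic lesions of a mouse model of endometriosis, to describe how much fat tissue RNA entered each lesion sample and whether it differed between Dnmt3a knockout and control lesions. The 10 genes were Adipoq, Lep, Retn, Cfd, Plin1, Plin4, Cidec, Lipe, Fabp4 and Car3, out of 56884 genes in the count table, and were found by matching the Ensembl identifiers, without their version, to mouse symbols. They were selected on textbook knowledge of fat cells and on their levels in these same libraries, so their levels and their KO against WT differences are given as a description with no test. All 10 had enough counts to enter the fit across 18177 genes, and the smallest count of any of them in any lesion was 220, for Lep in WT replicate 3.

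Control (WT) lesions were grown from the uterus of Dnmt3a f/f donors (n = 3) and KO lesions from Dnmt3a f/f:PR-Cre/+ donors (n = 3), so that both groups carried the floxed alleles. Cre is driven by the progesterone receptor gene and acts in donor cells that express that receptor, and recipients were wild-type female mice that carried estrogen pellets. Cells that came from the recipient, which can include fat, vessel and immune cells, therefore had an intact Dnmt3a gene in both groups. Donors were 8 weeks old. The methods describe endometrial pieces sutured to the mesenteric membrane and collected at day 21, whereas the labels describe uterine fragments injected into the peritoneal cavity and a time of 4 weeks; the conflict could not be settled here. Dnmt3a itself stood at 52.7, 43.9 and 51.7 CPM (counts relative to the library total, scaled between libraries) in the WT lesions and at 30.4, 33.5 and 36.2 CPM in the KO lesions, with no overlap. Libraries held 45370342 to 57239184 counts. The methods give as many donors as lesions in each group, and the labels do not tie lesions to animals. The p-values below weigh the group difference against the spread between these lesions, estimated with information shared across genes.

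White adipocytes store triglyceride in a single large lipid droplet. Perilipins and Cidec coat and enlarge the droplet, lipases such as the product of Lipe release its fatty acids, and Fabp4 carries them in the cytosol. The same cells secrete hormones, among them adiponectin and leptin, and the mesentery that suspends the gut is one of the main visceral fat depots of the mouse.

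The summed level of the 10 genes was 4466, 6423 and 4232 CPM in WT lesions (replicates 1, 2 and 3 in order), against 1333, 2326 and 10600 CPM in KO lesions. Adipocyte transcripts were thus present in every lesion. The highest and the lowest lesion both belonged to the KO group, and KO replicate 3 held 7.95 times the sum of KO replicate 1. As a share of all counts in the library, the genes made up 0.425%, 0.629% and 0.401% in WT lesions, against 0.133%, 0.244% and 1.11% in KO lesions. No library of pure fat was analysed here, so these shares cannot be turned into a fraction of fat tissue, and in bulk tissue fewer adipocytes and less RNA per adipocyte cannot be told apart. The genes also mark white fat in general and do not single out the mesenteric depot.

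**Figure D1:**
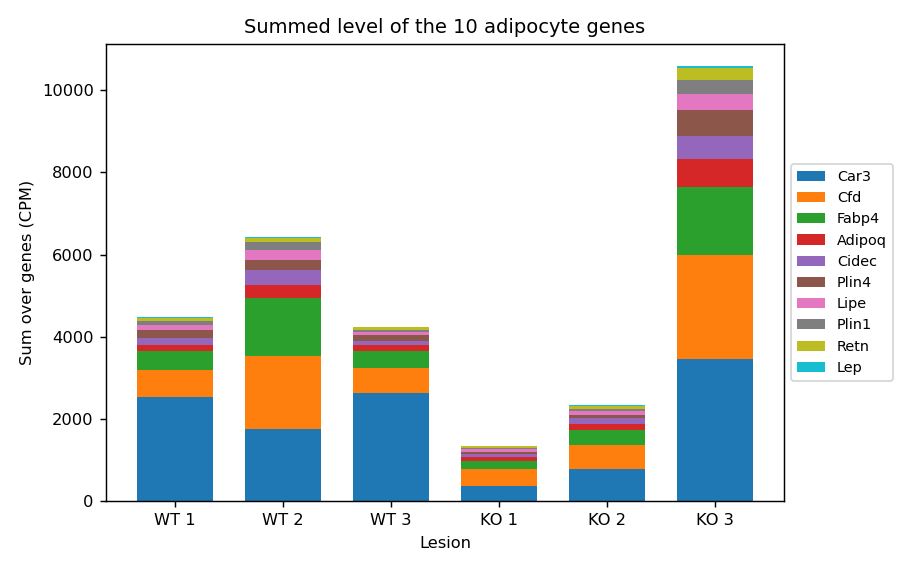
Summed CPM of the 10 adipocyte genes in each lesion, with 1 bar per lesion and 1 colour per gene. KO replicate 3 reaches 10600 CPM and KO replicate 1 has 1333 CPM, while the WT lesions lie between 4232 and 6423 CPM.

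Group means of the sum were close, with 5040 ± 1203 CPM (SD, n = 3) for the WT lesions against 4753 ± 5087 CPM (SD, n = 3) for the KO lesions, which is a log2 ratio of KO over WT of -0.085, or 0.005 with upper quartile scaling of the libraries. The SD of the KO group was larger than its mean. Without KO replicate 3 the KO mean was 1830 CPM and the log2 ratio -1.46, the largest move from leaving out 1 lesion. The ratio was above 0 without WT replicate 2 (0.13), KO replicate 1 (0.367) or KO replicate 2 (0.247), so that its sign was not stable. The sum was strongly weighted by Car3, which made up 27.1% to 62.3% of it. Without Car3 the remaining 9 genes summed to 1944, 4680 and 1596 CPM in WT lesions, against 972, 1561 and 7135 CPM in KO lesions, a log2 ratio of 0.23, or -1.11 without KO replicate 3.

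All 10 genes had their highest level in KO replicate 3 and all 10 had their lowest level in KO replicate 1. Among all tested genes, 12.8% were highest in KO replicate 3 and 15.9% were lowest in KO replicate 1. The level in KO replicate 3 was 6.06 to 13.0 times that in KO replicate 1 and 1.18 to 2.78 times that of the highest WT lesion. The rule used for calls across all genes marked none of the 10 as lower and none as higher in KO lesions, from which nothing is read, since they were chosen on these libraries. A call needs a log2 fold change beyond 1 in size and a p-value, before adjustment, under 0.05. This rule called 5.85% of all tested genes lower and 3.1% higher, and 1 gene in all had an adjusted p-value under 0.05 in edgeR's quasi-likelihood test, against 2674 with an unadjusted one. The adjusted count was 1100 with the Wald test of DESeq2 and 398 in edgeR without WT replicate 2. The WT and KO lesions overlapped for each of the 10 genes, whereas 8.74% of all tested genes were higher in every WT lesion than in every KO lesion and 10.7% were higher in every KO lesion.

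**Figure D2:**
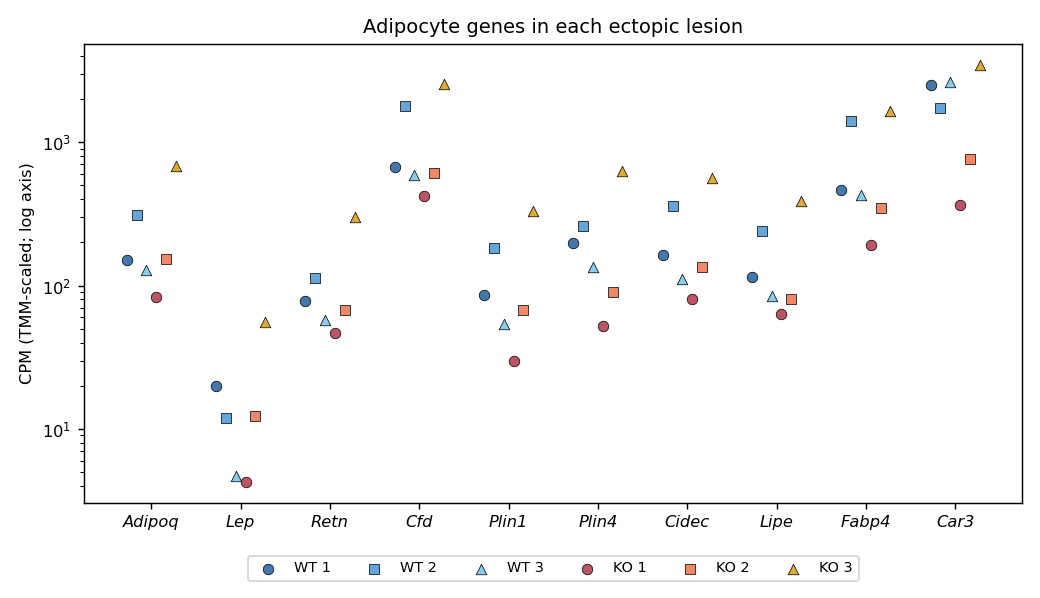
Level of each adipocyte gene in CPM (log axis) in each of the 6 lesions, blue for WT and red to yellow for KO, with 1 marker per lesion. For each gene KO replicate 3 is the highest point and KO replicate 1 the lowest.

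Among the secreted products, Adipoq encodes adiponectin, a hormone made almost only by fat cells. Adipoq (ENSMUSG00000022878.6) was at 150, 312 and 129 CPM in WT lesions, against 83.6, 154 and 688 CPM in KO lesions. KO replicates 1 and 2 lay in or below the WT range and KO replicate 3 above it. The log2 fold change of KO over WT was 0.65, its standard error 0.83, and -0.73 without KO replicate 3. Lep (ENSMUSG00000059201.13) encodes leptin, the hormone that signals fat stores to the brain. It was at 20.0, 11.9 and 4.70 CPM in WT lesions, against 4.28, 12.4 and 55.5 CPM in KO lesions. Lep was thus the only one of the 10 genes whose highest WT lesion was replicate 1 while WT replicate 2 lay below KO replicate 2. The log2 fold change was 0.98 ± 0.99 (standard error), and -0.54 without KO replicate 3.

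Retn (ENSMUSG00000012705.17) encodes resistin, in mice a hormone of white fat. It was at 77.8, 113 and 57.6 CPM in WT lesions, against 46.3, 67.1 and 302 CPM in KO lesions. Cfd (ENSMUSG00000061780.7) encodes adipsin, the complement factor D, which fat cells secrete in large amounts. It was at 666, 1795 and 592 CPM in WT lesions, against 418, 605 and 2532 CPM in KO lesions. In both genes KO replicate 3 came first and WT replicate 2 next. The log2 fold changes were 0.74 with a standard error of 0.74 for Retn and 0.22 with a standard error of 0.81 for Cfd. Without KO replicate 3 they were -0.55 and -0.99.

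Proteins of the lipid droplet surface had the same pair of lesions at the top. Plin1 (ENSMUSG00000030546.15), the perilipin that guards the droplet of fat cells against lipases, was at 86.4, 184 and 54.2 CPM in WT lesions, against 29.9, 67.7 and 329 CPM in KO lesions. Plin4 (ENSMUSG00000002831.15), a perilipin of nascent droplets, was at 198, 261 and 135 CPM in WT lesions, against 52.4, 89.7 and 631 CPM in KO lesions. Cidec (ENSMUSG00000030278.12), which transfers lipid between droplets and so makes them large, was at 164, 358 and 111 CPM in WT lesions, against 80.3, 134 and 560 CPM in KO lesions. For Plin4 both KO replicates 1 and 2 were below all WT lesions, whereas for Plin1 and Cidec KO replicate 2 lay inside the WT range. The log2 fold changes were 0.40, 0.38 and 0.29 with standard errors of 0.93, 0.93 and 0.82 for Plin1, Plin4 and Cidec. Without KO replicate 3 they were -1.15, -1.48 and -0.97.

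Lipe (ENSMUSG00000003123.16) encodes hormone-sensitive lipase, which splits diglyceride when catecholamines call for fatty acids. It was at 114, 242 and 83.9 CPM in WT lesions, against 63.6, 80.8 and 391 CPM in KO lesions. Fabp4 (ENSMUSG00000062515.4), the fatty acid carrier of fat cells that capillary endothelium and macrophages also make, was at 467, 1403 and 430 CPM in WT lesions, against 193, 350 and 1648 CPM in KO lesions. Car3 (ENSMUSG00000027559.6) encodes carbonic anhydrase 3, an abundant protein of fat cells and also of slow skeletal muscle. It was at 2522, 1743 and 2635 CPM in WT lesions, against 362, 766 and 3464 CPM in KO lesions. In each of these genes KO replicates 1 and 2 were below all WT lesions, as they were for Plin4, and KO replicate 3 was above them. The log2 fold changes were 0.29, -0.07 and -0.59 with standard errors of 0.80, 0.90 and 0.82 for Lipe, Fabp4 and Car3. Without KO replicate 3 they were -1.02, -1.50 and -2.03.

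Over the 10 genes the median log2 fold change was 0.34, beside 0.01 for all tested genes, and 2 of 10, Fabp4 and Car3, were below 0. With upper quartile scaling Fabp4 was at 0.021 and only Car3 was below 0. Without KO replicate 3 all 10 were below 0 and the median was -1.005. Without WT replicate 2, the WT lesion with the largest sum, the median was 0.91 and only Car3 was below 0. Without WT replicate 3, 5 of 10 were below 0. The standard error exceeded the size of the change for all 10, narrowly for Lep and Retn.

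**Figure D3:**
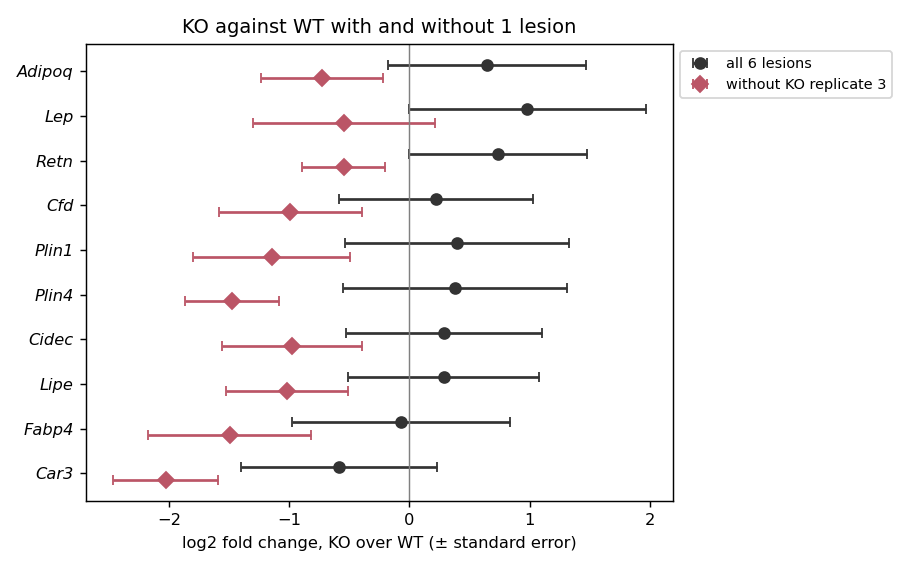
Log2 fold change of KO over WT for each adipocyte gene with its standard error as the bar, from all 6 lesions (circles) and without KO replicate 3 (diamonds). The diamonds lie between -2.03 and -0.54, the circles between -0.59 and 0.98.

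Levels of different genes were compared per kb of exon, with all annotated exons of a gene merged. The merged length can exceed that of the transcript made, and it was 4489 bases for Fabp4, so the order is a rough one. On this scale, in mean CPM per kb over the 6 lesions, Cfd was the highest with 1195, followed by Car3 with 669, Adipoq with 183, Fabp4 with 167, Cidec with 126 and Retn with 70.1. Plin4, Lipe and Plin1 followed with 39.4, 27.6 and 26.9, and Lep was the lowest with 5.40. Adipoq and Fabp4, and Lipe and Plin1, were neighbours that differed by far less than the spread between lesions. The secreted factor D and the carbonic anhydrase thus stood well above the droplet proteins and leptin.

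Across the 6 lesions the genes moved together. Pearson's r of log2 CPM was 0.73 to 0.99 in the 36 pairs without Car3, with a median of 0.96, and 0.59 to 0.85 for Car3 with the other 9 genes. The 6 points share the libraries and their scaling, and the 2 extreme lesions weigh heavily in them. Dividing each gene by Adipoq in the same lesion removed most of the range. Cidec per Adipoq stayed between 0.814 and 1.15, Lipe between 0.524 and 0.773, Retn between 0.363 and 0.554, Cfd between 3.68 and 5.75 and Plin1 between 0.358 and 0.588. Plin4 per Adipoq was wider, from 0.582 to 1.32, with the high values in WT replicates 1 and 3.

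The ratios of Fabp4 and Car3 to Adipoq were higher in every WT lesion than in every KO lesion. Fabp4 per Adipoq was 3.11, 4.49 and 3.33 in WT lesions, against 2.31, 2.27 and 2.40 in KO lesions, so that the 3 KO lesions were close to each other and below every WT lesion. Car3 per Adipoq was 16.8, 5.58 and 20.4 in WT lesions, against 4.33, 4.97 and 5.04 in KO lesions, again with no overlap, though WT replicate 2 lay just above the KO lesions. These were 2 of 9 ratios, and over all tested genes 4.75% had a ratio to Adipoq that was higher in every WT lesion. Since the members were chosen on these libraries, nothing is read from that count. Lep per 100 Adipoq was 13.3, 3.80 and 3.64 in WT lesions, against 5.12, 8.04 and 8.08 in KO lesions, the least constant of the hormone ratios.

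**Figure D4:**
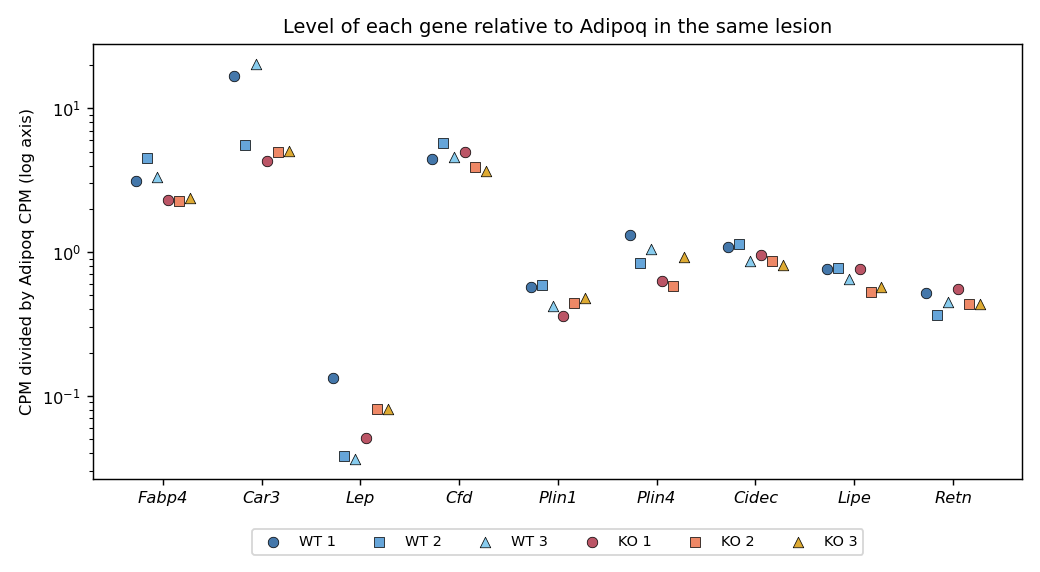
CPM of each gene divided by the CPM of Adipoq in the same lesion (log axis), 1 marker per lesion. The ratios of Cidec, Lipe, Retn, Cfd and Plin1 vary little, whereas Car3 reaches 16.8 and 20.4 in WT replicates 1 and 3 and stays between 4.33 and 5.58 in the other lesions.

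Markers of skeletal muscle were high where the Car3 ratio was high. The summed level of 12 skeletal muscle genes was 34620, 6.62 and 35450 CPM in WT lesions, against 15.3, 9.65 and 14.96 CPM in KO lesions, led by Acta1 and Myh4, the skeletal actin and a fast myosin. Of slow muscle genes, 6 summed to 1354, 2.43 and 437 CPM in WT lesions, against 1.12, 2.503 and 1.61 CPM in KO lesions, led by Myh7 and Tnnt1. WT replicates 1 and 3, which had the high Car3 ratios, were thus the lesions with muscle transcripts. In WT replicate 2 and in the KO lesions the fast myosins Myh1 and Myh4 were at 0 to 0.540 CPM, and the Car3 ratios of those 4 lesions lay between 4.33 and 5.58. The part of muscle in the Car3 level of WT replicates 1 and 3 was not tested.

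Endothelial and macrophage genes, 2 other sources of Fabp4, were also measured. The 8 endothelial genes, led by Pecam1 and Cdh5, summed to 481, 564 and 478 CPM in WT lesions, against 325, 225 and 609 CPM in KO lesions. The 7 macrophage genes, led by C1qb and Csf1r, summed to 1139, 2649 and 1133 CPM in WT lesions, against 738, 532 and 1349 CPM in KO lesions. Both sums were lower in KO replicates 1 and 2 than in every other lesion, as were Plin4, Lipe, Fabp4 and Car3. WT replicate 2, with the highest Fabp4 ratio, had the highest macrophage sum and also held 9604 CPM of 6 neutrophil genes, led by S100a9 and S100a8, against 17.9 to 463 CPM in the other lesions. Their part in the Fabp4 ratio was not tested.

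Tissues near the mesentery gave a mixed picture. The 6 pancreatic acinar genes, led by Ctrb1 and Pnlip, reached 5050 CPM in WT replicate 3 and 7.19 to 16.0 CPM in the other lesions, where Cela1 made up most of it. Pancreas transcripts were thus seen in a lesion with a middle level of adipocyte genes. The 7 mesothelial genes, led by Upk3b and Msln, summed to 337, 327 and 74.3 CPM in WT lesions, against 50.9, 347 and 197 CPM in KO lesions. KO replicate 2, low in adipocyte genes with and without Car3, had the highest mesothelial sum. This lining therefore did not follow the adipocyte genes lesion by lesion. The 6 genes of intestinal epithelium summed to 0.709 to 3.80 CPM, led by Vil1 and Lgals4, and Alpi was at 0 in all 6 lesions.

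Genes of the endometrial tissue itself were highest where the adipocyte sums were lowest. The 6 epithelial genes, led by Cdh1 and Krt8, summed to 1306, 1051 and 1745 CPM in WT lesions, against 2317, 2182 and 1187 CPM in KO lesions. The 6 stromal genes, led by the hormone receptors Esr1 and Pgr, summed to 372, 267 and 488 CPM in WT lesions, against 751, 744 and 465 CPM in KO lesions. KO replicates 1 and 2, the lesions with the lowest adipocyte sums, had the highest sums in both lists, and WT replicate 2 had the lowest. Of the stromal genes, Hoxa11, Esr1 and Hand2 were called higher in KO, with log2 fold changes of 1.05, 1.13 and 1.02, standard errors of 0.31, 0.39 and 0.26 and adjusted p-values of 0.321, 0.328 and 0.321 (edgeR), and 4 of 6 were higher in every KO lesion. Smooth muscle genes, led by Acta2 and Des, summed to 829 CPM in WT replicate 2 and to 1777 to 4230 CPM in the others, but Des, also a gene of skeletal muscle, made up 2675 CPM of the highest sum, in WT replicate 1. Of the 6 smooth muscle genes, Cnn1 and Actg2 were called higher, and these with Myh11 and Smtn were higher in every KO lesion. These genes, beyond the leading ones, were named after their values were seen, and the shares over all genes were 3.1% for higher calls and 10.7% for no overlap in this direction. The labelled tissue was therefore present in every lesion, while Foxa2, the factor of uterine glands, was at 0 to 2.62 CPM.

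**Figure D5:**
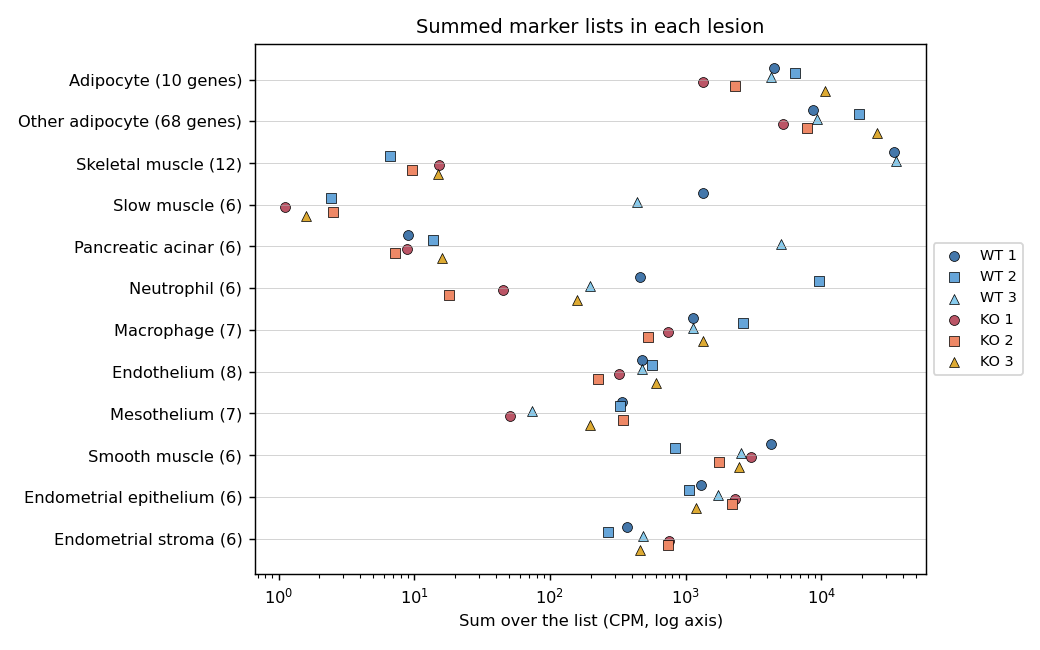
Summed CPM (log axis) of each marker list in each lesion, with the number of genes in each list in brackets and 1 marker per lesion. Adipocyte genes span 1333 to 10600 CPM, and skeletal muscle genes separate WT replicates 1 and 3, at 34620 and 35450 CPM, from the other lesions at 6.62 to 15.3 CPM.

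A wider set of 68 other adipocyte genes, in 6 lists by function and also chosen with earlier results of these data known, covered more of the fat cell. Of these, 66 were tested, and Fitm1 and Itln1 were too low in most lesions. The set summed to 8660, 18830 and 9240 CPM in WT lesions, against 5209, 7815 and 25950 CPM in KO lesions, the same order at both ends as the 10 genes. Scd1 alone made up 25.7% to 56.5% of it, and without Scd1 the sums were 5482, 9807 and 5630 CPM in WT lesions, against 3871, 4620 and 11290 CPM in KO lesions. KO replicate 3 was the highest lesion for 38 of 66 genes, WT replicate 2 for 17, and KO replicate 1 the lowest for 36. Over all tested genes these shares were 12.8%, 24.2% and 15.9%. The call rule found 3 of 66 genes lower in KO, Gpd1, Slc2a4 and Nampt, and 0 higher, near the background of 5.85% and 3.1%. No gene of the set had an adjusted p-value under 0.05 in edgeR's quasi-likelihood test, 5 had an unadjusted one, and DESeq2 gave 1, Nampt, lower with an adjusted p-value of 0.0361. By the call rule DESeq2 had 4 genes lower and 1 higher, Nnat, with a log2 fold change of 1.72 and an adjusted p-value of 0.200. The median log2 fold change was -0.06, beside 0.01 over all tested genes. Without KO replicate 3, 15 of 67 tested genes were called lower, beside 8.66% of all genes, and the median was -0.80.

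Transcription factors that drive fat cell formation gave no call in edgeR with all 6 lesions. Of 11 tested, 0 were called, beside 5.85% lower and 3.1% higher of all tested genes. Below 0 lay 10, beside 48.6% of all tested genes, and the median log2 fold change was -0.44. DESeq2 called 1 lower, Cebpb, beside 7.43% of all genes. In edgeR 5 were called lower without KO replicate 3 and 2 without WT replicate 3, beside 8.66% and 6.24% of all genes. Srebf1, a factor of lipid synthesis, was at 94.4, 168 and 83.0 CPM in WT lesions, against 78.9, 81.2 and 168 CPM in KO lesions. Cebpa, which keeps fat cells differentiated, was at 65.2, 128 and 48.2 CPM in WT lesions, against 36.3, 43.3 and 159 CPM in KO lesions. Pparg, the master regulator, picked here after its values were seen, was at 19.3, 38.5 and 17.7 CPM in WT lesions, against 11.7, 22.6 and 52.2 CPM in KO lesions. All of these were highest in KO replicate 3 and lowest in KO replicate 1, like the 10 genes, though Srebf1 was nearly equal in KO replicate 3 and WT replicate 2. Over the whole list 7 of 11 factors were highest in KO replicate 3 and 8 of 11 lowest in KO replicate 1, beside 12.8% and 15.9% of all genes. Cebpd and Mlxipl were higher in every WT lesion than in every KO lesion, as were 8.74% of all genes.

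The promoter windows of the 10 genes were searched for letters that these factors are known to bind, and the windows with a match are shown. RefSeq held a window for 8 of the 10 genes, 10 windows in all since Cidec and Lipe have 2 each, while Fabp4 and Car3 have none in the table used. Each window runs from 250 bases before the annotated start to 50 bases after it on GRCm38.p6, and positions count from the start site. The C/EBP core TTGCNNAA, bound by Cebpa and its relatives, was searched on both strands and found in 3 of the 10 windows, in Lep, Plin1 and 1 window of Cidec. Among all 32851 windows of 300 bases it was in 10.8%. Capitals mark the matches, which overlap no other motif searched and lie at -55 to -48 in Lep, at -187 to -180 and -58 to -51 in Plin1 and at -198 to -191 in Cidec.
Lep, chr6:29059971-29060270, plus strand: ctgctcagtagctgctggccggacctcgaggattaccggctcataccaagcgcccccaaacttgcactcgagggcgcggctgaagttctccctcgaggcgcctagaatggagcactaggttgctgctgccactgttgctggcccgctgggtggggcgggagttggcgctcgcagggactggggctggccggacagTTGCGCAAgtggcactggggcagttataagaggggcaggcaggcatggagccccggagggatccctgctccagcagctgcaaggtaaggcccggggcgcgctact
Plin1, chr7:79732727-79733026, minus strand: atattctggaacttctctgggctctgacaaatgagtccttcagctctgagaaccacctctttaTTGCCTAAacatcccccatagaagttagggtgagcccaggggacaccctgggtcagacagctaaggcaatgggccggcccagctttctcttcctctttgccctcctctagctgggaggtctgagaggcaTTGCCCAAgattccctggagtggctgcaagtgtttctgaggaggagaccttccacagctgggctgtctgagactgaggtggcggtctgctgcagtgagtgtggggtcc
Cidec, chr6:113434715-113435014, minus strand: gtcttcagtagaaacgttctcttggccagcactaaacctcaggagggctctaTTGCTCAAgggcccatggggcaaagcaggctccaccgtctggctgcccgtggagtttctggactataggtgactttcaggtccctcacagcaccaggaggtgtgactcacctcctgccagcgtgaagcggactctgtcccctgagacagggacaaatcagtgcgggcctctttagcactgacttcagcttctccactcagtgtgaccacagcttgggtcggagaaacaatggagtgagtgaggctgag
The half-site AGGTCA of nuclear receptors such as Pparg was in 0 of the 10 windows and in 16.3% of all windows, the letters TATAAA in 0 and 13.6%, and the spaced direct repeat of half-sites in 0 and 0.381%. A match describes the letters of these windows, and no binding or methylation was measured here.

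Lipid droplet genes other than the members gave 0 calls among 7 tested, beside 5.85% lower and 3.1% higher of all genes. Their median log2 fold change was -0.54. Plin2, the droplet coat of many cell types, was at 165, 375 and 189 CPM in WT lesions, against 133, 111 and 257 CPM in KO lesions. Plin3, another broadly used coat, stayed between 53.6 and 71.2 CPM. Neither had its highest level in KO replicate 3, unlike Plin1 and Plin4. Fitm1, left out by the filter, was at 43.1 and 35.1 CPM in WT replicates 1 and 3, the lesions with muscle transcripts. It was at 0 to 0.0417 CPM in the others, and was called lower when no filter was used. Lipolysis genes gave 0 calls among 12, beside the same shares, with a median of 0.04. Pnpla2, the lipase of the first step, was at 192, 334 and 178 CPM in WT lesions, against 153, 156 and 432 CPM in KO lesions. Mgll, which splits monoglyceride, was at 225, 251 and 145 CPM in WT lesions, against 147, 134 and 337 CPM in KO lesions. Both were highest in KO replicate 3, like Lipe.

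Of 16 genes of fatty acid and triglyceride synthesis, 1 was called lower and 0 higher, beside 5.85% and 3.1% of all genes. Scd1, which desaturates fatty acids, was at 3178, 9026 and 3609 CPM in WT lesions, against 1338, 3195 and 14660 CPM in KO lesions, and Fasn, the fatty acid synthase, at 314, 1311 and 439 CPM in WT lesions, against 391, 520 and 1443 CPM in KO lesions. The order of KO replicate 3 and then WT replicate 2 returned in both. Gpd1, which makes the glycerol backbone and is also a gene of fast muscle, was at 161, 263 and 211 CPM in WT lesions, against 61.2, 89.0 and 160 CPM in KO lesions. This gave a log2 fold change of -1.03 ± 0.39 (standard error), and the adjusted p-value was 0.332 (edgeR, quasi-likelihood test, Benjamini-Hochberg), while the lowest WT and the highest KO lesion nearly met. The call was lost with upper quartile scaling, and without WT replicate 2, WT replicate 3, KO replicate 1 or KO replicate 2.

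Of 10 genes for the uptake of lipid and glucose, 1 was called lower, beside 5.85% of all genes. Lpl, the lipase that frees fatty acids from lipoproteins, was at 591, 735 and 577 CPM in WT lesions, against 314, 415 and 1841 CPM in KO lesions. Cd36, a fatty acid receptor also on vessels and macrophages, was at 332, 390 and 271 CPM in WT lesions, against 198, 196 and 894 CPM in KO lesions. Slc2a4, the insulin-regulated glucose transporter of fat and muscle, was at 72.3, 34.5 and 82.9 CPM in WT lesions, against 25.9, 21.3 and 40.8 CPM in KO lesions. Its log2 fold change (-1.11) had a standard error of 0.40, and the adjusted p-value was 0.328 (edgeR). Without WT replicate 1, WT replicate 3, KO replicate 1 or KO replicate 2 Slc2a4 was not called. The 2 lesions with the highest Slc2a4 were those with muscle transcripts, and KO replicate 3 was above WT replicate 2.

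Of 10 further secreted or fat-enriched products, 1 was called lower, beside 5.85% of all genes. Nampt, an enzyme of NAD synthesis also made by neutrophils, was at 105, 244 and 114 CPM in WT lesions, against 63.0, 59.4 and 74.1 CPM in KO lesions, with no overlap. The log2 fold change was -1.24 ± 0.35 (standard error) and its adjusted p-value 0.321 (edgeR). Nampt was highest in WT replicate 2, which had the highest neutrophil sum. Its call was lost without that lesion and kept without each of the others. Angptl4, an inhibitor of Lpl, was at 57.2, 115 and 77.9 CPM in WT lesions, against 55.9, 51.3 and 184 CPM in KO lesions, again highest in KO replicate 3. The part of muscle and neutrophils in the 3 calls was not tested.

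Receptors for the hormones were also present. Adipor2, a receptor for adiponectin, was at 218, 354 and 209 CPM in WT lesions, against 149, 189 and 438 CPM in KO lesions. Adipor1, the other one, was at 222, 340 and 211 CPM in WT lesions, against 152, 155 and 146 CPM in KO lesions, higher in every WT lesion, with a log2 fold change of -0.77 and a standard error of 0.22 that did not reach the fold of the call rule. Cdh13, a surface protein that binds adiponectin, was the 1 receptor of 4 called lower (5.85% of all genes), at 83.9, 35.4 and 60.0 CPM in WT lesions, against 19.1, 12.3 and 35.2 CPM in KO lesions. Its log2 fold change (-1.43) had a standard error of 0.48, and the adjusted p-value was 0.328 (edgeR). Its lowest WT and highest KO lesion were almost equal. The 4 receptors tested, Lepr for leptin included, had log2 fold changes from -1.43 to -0.01, where 48.6% of all tested genes were below 0, and Adipor2 was at 0.084 with upper quartile scaling.

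Brown fat genes did not follow the white fat genes. Ucp1, the protein that lets brown fat burn fuel for heat, was at 0.512, 43.4 and 1.07 CPM in WT lesions, against 0.0702, 0 and 0.0834 CPM in KO lesions, that is 1928 counts in WT replicate 2 and at most 50 in any other lesion. KO replicate 3, with the most white fat transcripts, had 4 counts of Ucp1. Cidea of the same list, picked here after its values were seen, was at 18.2 CPM in WT replicate 2 and 11.6 CPM in KO replicate 2. In the other lesions it was at 0.427 to 1.24 CPM. Cox7a1 and Cox8b, subunits of cytochrome oxidase in muscle and brown fat, were at 28.6, 2.84 and 31.3 CPM and at 74.4, 12.8 and 61.4 CPM in WT lesions, against 0.982 to 1.11 and 0.175 to 1.29 CPM in KO lesions. Ucp1, Cox7a1 and Cox8b were called lower among 8 tested, beside 5.85% of all genes, and Cox7a1 and Cox8b were highest in the lesions with muscle transcripts. Dio2 and Otop1, the most abundant genes of this list, were at 288 to 633 and 6.34 to 131 CPM. Both were highest in KO replicate 1, the lesion with the least white fat transcripts, and whether they came from brown fat was not tested.

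Among genes of fat progenitors and fibroblasts, 2 of 8 tested were called lower and 1 higher, beside 5.85% and 3.1% of all genes. Pi16, of a fibroblast population in fat and other tissues, was at 36.02, 121 and 40.7 CPM in WT lesions, against 5.47, 4.13 and 26.5 CPM in KO lesions. Ly6a, a surface protein of progenitors, vessels and immune cells, was at 551, 758 and 631 CPM in WT lesions, against 271, 169 and 453 CPM in KO lesions. F3, the tissue factor, was at 267, 176 and 257 CPM in WT lesions, against 644, 437 and 379 CPM in KO lesions. None of the 3 overlapped between groups, as was so for 8.74% (WT higher) and 10.7% (KO higher) of all genes, with log2 fold changes of -2.45, -1.12 and 1.06, standard errors of 0.89, 0.38 and 0.28 and adjusted p-values of 0.330, 0.328 and 0.321 (edgeR). Unlike the members, Pi16 and Ly6a were not highest in KO replicate 3, which lay below all WT lesions.

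Relatives of the members in the same gene families were counted as genes of their own. Of 36 relatives, 27 were tested, and 4 were called lower and 0 higher, beside 5.85% and 3.1% of all genes. Fabp3, the carrier of muscle, was at 105, 2.07 and 92.9 CPM in WT lesions, against 1.43 to 1.58 CPM in KO lesions, high in the lesions with muscle transcripts. Retnla, a relative of Retn made by macrophages and other cells, was at 12.2, 15.7 and 29.8 CPM in WT lesions, against 1.19, 2.503 and 4.42 CPM in KO lesions, whereas Retn overlapped. C1qtnf9, a relative of Adipoq, was at 9.86, 10.2 and 10.8 CPM in WT lesions, against 2.05, 4.45 and 7.40 CPM in KO lesions. The most abundant relatives of Car3 were Car12 and Car2, and Car12, a membrane carbonic anhydrase of epithelia, was at 462, 82.7 and 49.7 CPM in WT lesions, against 2272, 1812 and 232 CPM in KO lesions. Car12 was highest in KO replicates 1 and 2, where Car3 was lowest, and it was not called.

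The genes outside all lists whose pattern was most like that of the members were found by Pearson's r with the mean standardised log2 CPM of the 10 genes over the 6 lesions, among genes with a mean of at least 5 CPM. The 10 closest were Fads3, Prr16, Abcd2, Ttyh2, Plcb1, Paqr9, Hykk, Pex16, Ormdl3 and Pxmp4, with r from 0.990 to 0.998 and Spearman's rho from 0.943 to 1. Fads3, of the fatty acid desaturase family, was at 30.02, 39.8 and 22.0 CPM in WT lesions, against 15.9, 22.7 and 64.9 CPM in KO lesions. Abcd2, a peroxisomal transporter of very long fatty acids, was at 43.6, 65.5 and 37.9 CPM in WT lesions, against 19.8, 35.1 and 140 CPM in KO lesions. Pex16 and Pxmp4 encode proteins of the peroxisome membrane. Without KO replicates 1 and 3, the lesions farthest from the median, r of the 10 genes was 0.952 to 0.999 over the remaining 4 lesions. The 10 were picked for this likeness and their r is a description.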

How the data were processed

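Poly(A) RNA of 3 WT and 3 KO ectopic lesions was sequenced from stranded libraries, 1 per lesion. The authors deposited raw counts per gene. Trimming, mapping and counting are described for the Galaxy platform with GRCm38 as the genome, whereas the submitters' processing notes name GRCm39, Trimmomatic, featureCounts and DESeq2 without a version, so no coordinates of gene models are given. Symbols came from a reference list of mouse gene names, which matched 51948 of 56884 identifiers. Identifiers without a match held 3.04% to 3.56% of the counts. Exon lengths came from GENCODE M21, with all exons of a gene merged. The 6 count files of single lesions were identical to the table of the series.

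The fit was made in edgeR 4.0.16 (R 4.3.3), after filterByExpr (18177 genes), TMM scaling, a quasi-likelihood fit with genotype as its only term and Benjamini-Hochberg adjustment. Calls needed a log2 fold change above 1 or below -1 with a p-value under 0.05 before adjustment, and the steps were tested on simulated data. CPM used the TMM factors and no prior count, and log2 CPM for correlations a prior count of 2. The members and all lists were chosen with earlier results of these data known. Named were all members, from each adipocyte list the 2 tested genes with the highest mean and up to 3 called genes with the largest change and a mean of at least 1 CPM, from each list of other cell types the 2 genes with the highest mean, tested or not, and the 10 most alike genes with at least 5 CPM. Alternatives were other scalings, no filter, DESeq2 1.42.0, a term for the replicate number and each lesion left out. Fabp4 and Car3 have no promoter entry, and proteins were not analysed here. With at least 220 counts for every member, the spread between lesions and not counting error limits the precision.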

Additional observations from a re-analysis of the deposited data

How the results depend on the processing

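Over all tested genes, 1064 were called lower and 564 higher. Without a filter on low counts 1652 were called lower, and leaving out single lesions gave 551 to 1650 lower and 280 to 1021 higher. Other adipocyte genes called lower were 3, 5 without the filter, and 2 to 15 with each lesion left out, 15 of them without KO replicate 3. The log2 ratio of the member sums (-0.085) ranged from -1.46 to 0.367 and the median log2 fold change of the members (0.335) from -1.005 to 0.912, each lowest without KO replicate 3. Upper quartile scaling moved the median of all genes from 0.014 to 0.109 and gave 907 lower and 716 higher calls. DESeq2 called 1351 genes lower and 685 higher, 0 members among them, with 1100 genes at an adjusted p-value under 0.05, against 1 in edgeR and 398 in edgeR without WT replicate 2.

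With the replicate block, a term for the numbers in the labels, 573 genes were called lower and 372 higher, 4 other adipocyte genes were called lower, and the median of the members was -0.169. The labels give no reason to pair lesions by number, and deviations from the group means correlated by 0.0318, -0.152 and -0.201 between same-numbered lesions, so the samples share only a number. For single members, 110 of 120 alternative values stayed within the spread between lesions, and the other 10 were those without KO replicate 3. The sign of the member sum and of single members also turned without some other lesions, and 7 of 10 members were below 0 with the block. The spread between lesions, not depth, limits the precision of the member values.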
